A study of Mus musculus with 2 samples.

Results

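The collagen genes were all genes whose symbol is Col, a type number, the letter a and a chain number. In 2 single-cell libraries of mouse liver, 43 such genes were listed in both files, of 28200 symbols listed in either. Col10a1 was listed in 1 file only, with 1 count, and was not analysed. Both libraries came from male littermates after partial ligation of the inferior vena cava (pIVCL), an operation that narrows the vein draining the liver and congests it. The library labelled control had the genotype Ctgffl/fl, with floxed alleles of Ctgf (current symbol Ccn2, connective tissue growth factor). The library labelled knockout had Cdh5-CreERT2; Ctgffl/fl, that is the same floxed alleles and a tamoxifen-inducible Cre recombinase under the promoter of Cdh5, which is active in endothelial cells. The tamoxifen dose and timing are not stated in the labels. The titles of the samples put the 2 genotypes the other way round, and the library names go with the genotype labels. Ccn2 in endothelial cells was 979 CPM (95% interval 964 to 995) in the library labelled control against 10.3 CPM (9.13 to 11.5) in the one labelled knockout, which goes with the genotype labels. Ccn2 was also lower in other cell types, among them mesothelial cells (477 and 9.67 CPM, on 378 and 2 counts) and hepatocytes (36.6 and 0.292 CPM). In mesenchymal cells it was 1326 and 1129 CPM, 1.17-fold lower. The libraries are called the control-labelled and the knockout-labelled library below. There was 1 library per genotype, so no test between genotypes was possible. Differences are described by size, with intervals that cover counting error only and say nothing of the spread between mice.

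Cells were assigned to types by the number of fixed marker genes with a count, none of them a collagen, and a cell that also carried another lineage's markers was set aside. Of 7917 and 8799 cells kept in the libraries labelled control and knockout, 507 and 479 were gated as mesenchymal, 1847 and 3493 as endothelial and 42 and 12 as mesothelial. The mesenchymal gate takes hepatic stellate cells, pericytes and smooth muscle together. In both libraries Dcn and Ecm1 had a count in 100% of its cells and Lrat, a stellate cell enzyme of vitamin A storage, in 98.4% and 99.2%. Several other markers of the gate differed: Notch3 had a count in 45.6% and 18.6% of its cells, Ngfr in 45.8% and 67.4% and Pdgfrb in 87.4% and 79.5%. Ecm1 itself was 3213 and 9518 CPM, so the mesenchymal gates of the libraries were not matched in marker level. Every gate covers a range of marker number rather than a discrete class: 334 and 280 mesenchymal-marked cells lay at the number of markers needed or 1 below it. Portal fibroblast markers also had counts in endothelial cells, so fibroblasts were not gated. Cells with markers of 2 lineages (1658 and 1680) and cells in no gate (912 and 370) were left out of every gate. They held 30.6% and 35.4% (2 lineages) and 12.9% and 12.9% (no gate) of the collagen counts of kept cells. The files shared 2 barcode names. Most hepatocytes had been removed before capture. B, T and NK cells, pooled as lymphocytes, gave the level that free RNA in the suspension could produce.

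Collagens are trimeric proteins whose chains wind into a triple helix. Fibrillar collagens (types I, III and V among them) form the fibres of scar and interstitial matrix, network collagens (types IV and VIII) form sheets such as the basement membrane, type VI forms beaded filaments, and fibril-associated collagens (types XII, XIV and XVI) coat the fibres. Multiplexins (XV and XVIII) sit in basement membranes, and types XIII, XVII, XXIII and XXV are transmembrane proteins. In injured liver, hepatic stellate cells that become contractile myofibroblasts are regarded as the main source of fibrillar collagen, and sinusoidal endothelial cells lie on a sparse matrix that contains type IV collagen.

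The promoter windows of 3 genes on which the endothelial results turn are shown, from 250 bases before to 50 bases after the annotated start, 5′ to 3′ on the gene's strand, from RefSeq on GRCm38.p6. Col4a1 and Col4a2 encode the 2 chains of the common type IV collagen trimer and are neighbours on opposite strands, and Col13a1 encodes a transmembrane collagen. Capitals mark 3 motifs: the CCAAT box, read ATTGG on the other strand. The GC box, searched as GGGCGG, is read CCGCCC on the other strand. The TATA box, searched as TATAAA, is read TTTATA on the other strand.
Col4a1: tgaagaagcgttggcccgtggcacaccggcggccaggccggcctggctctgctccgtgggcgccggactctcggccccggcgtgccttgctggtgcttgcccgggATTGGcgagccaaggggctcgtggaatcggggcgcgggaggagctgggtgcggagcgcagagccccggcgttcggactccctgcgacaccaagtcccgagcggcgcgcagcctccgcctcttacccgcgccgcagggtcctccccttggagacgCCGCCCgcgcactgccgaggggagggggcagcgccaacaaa
Col4a2: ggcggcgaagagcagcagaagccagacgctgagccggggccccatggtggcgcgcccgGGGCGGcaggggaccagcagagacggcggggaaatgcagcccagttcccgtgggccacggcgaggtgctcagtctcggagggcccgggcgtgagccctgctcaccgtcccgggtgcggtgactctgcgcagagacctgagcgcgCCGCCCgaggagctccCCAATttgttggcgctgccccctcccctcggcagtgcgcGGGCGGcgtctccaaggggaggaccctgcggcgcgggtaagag
Col13a1: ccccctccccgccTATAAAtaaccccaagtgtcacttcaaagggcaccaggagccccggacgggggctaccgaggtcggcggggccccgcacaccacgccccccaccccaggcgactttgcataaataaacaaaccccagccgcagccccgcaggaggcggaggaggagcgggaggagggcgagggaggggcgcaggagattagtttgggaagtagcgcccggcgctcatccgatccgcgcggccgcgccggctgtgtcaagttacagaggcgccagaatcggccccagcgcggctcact
The Col4a1 window is chr8:11312777-11313076 on the minus strand, the Col4a2 window chr8:11312555-11312854 on the plus strand and the Col13a1 window chr10:61979059-61979358 on the minus strand. The Col4a1 and Col4a2 windows overlap by 78 bases, chr8:11312777-11312854, of which 73.1% are G or C, and the 2 start sites lie 21 bases apart. GGGCGG or its complement occurred in 23 of 37 windows of 34 collagen genes (62.2%) and in 35.7% of all 32851 promoter windows of that length in the table. CCAAT occurred in 35.1% of the collagen windows against 37.4% of all, and TATAAA in 10.8% against 13.6%. Col4a2 held 3 GGGCGG matches, Col4a1 held 1 and Col13a1 held none. The Col4a1 match lies in the overlap and is the same stretch of bases as 1 of the Col4a2 matches. The TATAAA of Col13a1 lies at position -237 from the start site. A match is a run of letters and does not show binding. The 43 genes include 8 pairs next to each other on a chromosome, Col3a1 with Col5a2, Col6a2 with Col6a1, Col4a4 with Col4a3 and Col4a6 with Col4a5 among them.

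By source, 36 of the 43 genes had 20 or more counts in kept cells of both libraries, and their levels by type are shown in the map of levels by type. A gene's leading source was the type of highest level among types of at least 10 cells with at least 10 counts of the gene. That level had to be at least 5 times the lymphocyte level, which was taken as no less than 3 counts in the pooled lymphocytes (1.11 and 0.982 CPM). Levels are CPM, counts per 1000000 counts summed over the gate. They are not divided by gene length, so they are compared between cell types and libraries and not between genes. The mesenchymal gate led for 12 genes in the control-labelled library and for 8 in the knockout-labelled library, and the mesothelial gate led for 9 in each. The same type led in both libraries for 17 genes: mesenchymal cells for Col4a1, Col4a2, Col5a1, Col6a3, Col8a1, Col14a1, Col16a1 and Col24a1, mesothelial cells for Col1a2, Col4a5, Col5a2, Col6a1, Col6a2 and Col6a5, endothelial cells for Col13a1, hepatocytes for Col18a1 and conventional dendritic cells for Col23a1. No type met this rule for 14 and 11 genes, in both libraries Col4a6, Col6a6, Col7a1, Col9a3, Col17a1, Col19a1, Col20a1, Col22a1 and Col25a1. Few counts can be the reason: Col4a6 and Col6a6 had under 10 counts in every type of 10 or more cells. Col17a1, at 2.02 and 2.70 CPM in its highest type, had 93.9% and 92.9% of its 33 and 85 gated counts in endothelial cells. Col7a1 forms anchoring fibrils under epithelia. Of the remaining 7 genes, Col2a1, Col9a1, Col9a2 and Col26a1 had under 20 counts in either library, and Col6a4, Col11a1 and Col28a1 in 1 of the 2. In the knockout-labelled library monocytes led for Col5a3, Col12a1 and Col15a1, but 1 monocyte held 99.1%, 96.6% and 99.4% of those counts. In that library cholangiocytes led for Col27a1, Kupffer cells for Col11a2 and endothelial cells for Col4a3. The counting intervals of the leading and the next type overlapped for Col6a1, Col12a1 and Col27a1 in the control-labelled library and for Col4a4, Col4a5, Col12a1, Col18a1 and Col27a1 in the knockout-labelled library. Of all collagen counts in gated cells, mesenchymal cells held 73.1% (exact 95% binomial interval 72.9 to 73.3) in the control-labelled library and 49.4% (49.2 to 49.7) in the knockout-labelled library. Endothelial cells held 17.7% and 34.1%, in libraries where they were 23.3% and 39.7% of kept cells. With all kept cells in the denominator the mesenchymal shares were 41.3% and 25.5%.

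**Figure D1:**
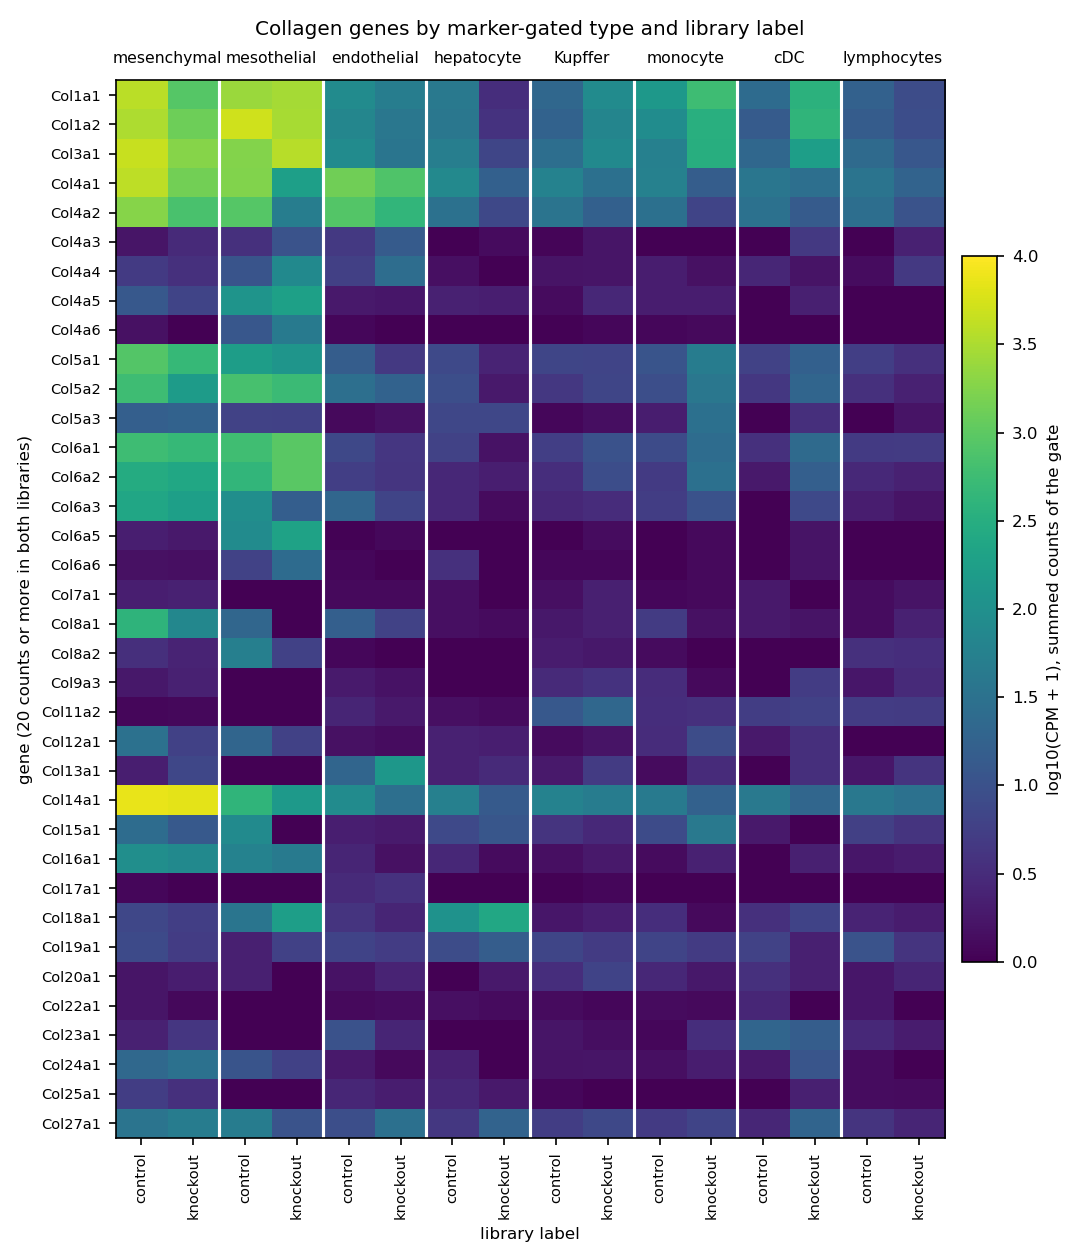
Levels of the 36 collagen genes with 20 or more counts in kept cells of both libraries, as log10 of CPM plus 1, in rows, by marker-gated type and library label in columns. Col14a1 is brightest in the mesenchymal gate of both libraries, Col4a1 and Col4a2 extend into the endothelial gate, and Col18a1 stands out in hepatocytes.

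In mesenchymal cells, collagens I, III, IV, V and VIII were lower in the knockout-labelled library, and types VI and XIV differed by less than 1.5-fold. A gene counted as measured in a gate with 20 counts or more in all and 10 CPM or more in 1 library. Of 19 such genes 11 were lower by 1.5-fold or more, and 0 were higher by that fold. Of all 9420 genes measured in this gate 13.4% were lower by that fold and 9.2% higher, and no replicate stands behind either share. The median log2 ratio of the 19 genes was -1.004, against -0.01 over all genes measured. All collagen counts together were 28149.5 CPM in the control-labelled library and 14968 CPM in the knockout-labelled library. The 2 libraries also differed in how contractile these cells were: Acta2, smooth muscle actin, was 1715 and 137 CPM.

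Collagen I is built from chains of both Col1a1 and Col1a2. Its chain gene Col1a1 was 3845 CPM (95% interval 3795 to 3895) in the control-labelled library against 897 CPM (869 to 925) in the knockout-labelled one, 4.29-fold lower (log2 ratio -2.10, 95% interval -2.15 to -2.05). Col1a2 was 3210.5 CPM (95% interval 3165 to 3256) in the control-labelled library against 1289 CPM (1256 to 1323) in the knockout-labelled one, 2.49-fold lower. The Col1a1 counts were unevenly spread: its 10 highest cells held 29.1% of its counts in the control-labelled library and 59.8% in the knockout-labelled library. A Col1a1 count was found in 92.7% and 59.9% of mesenchymal cells, while Col1a2 was found in 99.8% and 98.3%. Col3a1, the collagen III chain laid down with type I in scar, was 4652 CPM (95% interval 4598 to 4707) in the control-labelled library against 1859.8 CPM (1820.5 to 1899.8) in the knockout-labelled one, 2.5-fold lower. Among the type V chains, which regulate the start and width of collagen I fibres, Col5a1 was 848 and 480.0 CPM (1.77-fold lower) and Col5a2 was 580.2 and 158 CPM (3.67-fold lower). The remaining type V chain, Col5a3, was 15.2 and 17.1 CPM, within 1.5-fold. The minor fibrillar genes Col24a1 (21.1 and 30.5 CPM) and Col27a1 (33.2 and 46.9 CPM) were on the other side of 0, 1.44-fold and 1.41-fold higher in the knockout-labelled library, short of the 1.5-fold used for a call. Over the family, 5 of 8 measured fibrillar genes were lower and 0 higher.

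The basement membrane chain Col4a1 was 3953 CPM (95% interval 3902 to 4003) in the control-labelled library against 1428 CPM (1394 to 1463) in the knockout-labelled one, 2.77-fold lower (log2 ratio -1.47, 95% interval -1.51 to -1.43). Its partner chain Col4a2 was 1866 CPM (95% interval 1832 to 1901) in the control-labelled library against 707 CPM (683 to 732) in the knockout-labelled one, 2.64-fold lower. Both type IV genes were found in at least 92.9% of cells of either library. Col8a1, a short-chain network collagen found in vessel walls, was 402 and 70.4 CPM, 5.71-fold lower, and was found in 35.5% and 10.6% of cells. With cell types taken from Leiden clusters made without collagen genes, its log2 ratio was -0.20, within 1.5-fold, against -2.51 in the gate. The cluster named mesenchymal held 361 and 512 cells. Another cluster led by mesenchymal markers, with 407 and 97 cells, also had endothelial markers and was left unnamed, so the cells compared differ from those of the gate. Among fibril-associated genes the pattern was split: Col12a1 was 29.6 and 5.04 CPM (5.88-fold lower), Col16a1 92.8 and 78.9 CPM and Col14a1 7437 CPM (95% interval 7368 to 7506) in the control-labelled library against 6957 CPM (6881 to 7034) in the knockout-labelled one. Col14a1, the most counted collagen gene of the gate, differed by 1.07-fold and had a count in 100% of cells of both libraries. Its share of all mesenchymal collagen counts was 26.4% in the control-labelled library and 46.5% in the knockout-labelled library, while that of Col1a1 was 13.7% and 5.99%. The 3 measured type VI chains, which form beaded filaments around cells, were close between libraries: Col6a1 577 and 470.1 CPM, Col6a2 285 and 237 CPM and Col6a3 232 and 183 CPM, the largest of these differences being 1.27-fold over the gate as a whole.

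Several lower calls rested on few cells. Col15a1, a multiplexin, was 24.6 and 12.3 CPM, but it was found in 0.986% and 1.25% of mesenchymal cells, and its direction turned under 3 other ways of processing. Col4a5, a minor type IV chain, was 11.7 and 5.7 CPM with a count in 5.33% and 1.25% of cells. Its log2 ratio was within 1.5-fold after thinning (-0.45), in highly contractile cells (-0.16) and with cells of 4 to 6 mesenchymal markers added (-0.34). In the knockout-labelled library the 10 highest cells held all counts of Col12a1, Col15a1 and Col4a5. Without those 3 genes the lower calls were Col1a1, Col1a2, Col3a1, Col4a1, Col4a2, Col5a1, Col5a2 and Col8a1, and 10 of the 11 lower genes kept their direction in every setting run.

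**Figure D2:**
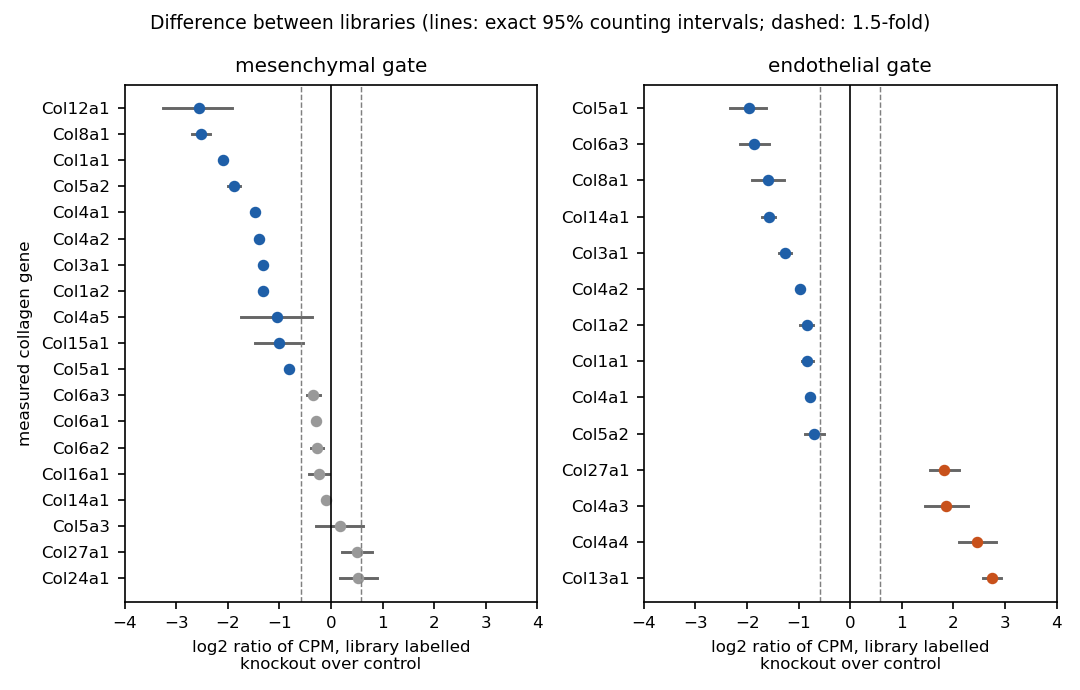
Log2 ratio of CPM, knockout-labelled over control-labelled library, for each collagen gene measured in the mesenchymal gate (left) and in the endothelial gate (right), with exact 95% counting intervals as lines and 1.5-fold as dashed lines. Points are blue where lower, orange where higher and grey within 1.5-fold. In mesenchymal cells 11 of 19 genes are at least 1.5-fold lower and 0 higher, and in endothelial cells 10 of 14 are lower and 4 higher.

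Since contractile cells were fewer in the knockout-labelled library, the collagens were set out by contractile level. Each mesenchymal cell was placed by its counts of 6 contractile genes (Acta2, Tagln, Myh11, Cnn1, Actg2 and Myl9) per 10000 counts. The median was 17.2 in the control-labelled library and 5.92 in the knockout-labelled library, and 61.1% and 33.8% of cells lay at 10 or above. The groups are stretches of a continuous score, and 132 and 203 cells lay between 5 and 20. Below 10 per 10000, 11 of 18 measured collagen genes had a level 1.5-fold or more below that of the control-labelled library, and 0 had one above it, beside 14.3% and 8.6% of all genes. At 10 or above, 9 of 19 were lower and 1, Col27a1, was higher, beside 15.3% and 12.6%.

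Across the 5 narrower ranges with at least 20 cells in both libraries, Col1a1, Col1a2, Col3a1, Col4a1, Col4a2 and Col5a2 were at least 1.5-fold lower in every range. Below 2 contractile counts per 10000, with 87 and 94 cells, Col1a1 was 924 and 211 CPM and Col4a1 1492 and 913 CPM. From 5 to 10 the gap in Col1a1 was the widest, 2408 and 231 CPM, 10.4-fold. From 20 to 50, with 107 and 50 cells, it was narrower, 4267 and 2391 CPM, 1.78-fold, and Col3a1 was 5565 and 3286 CPM. At 50 or more the knockout-labelled library had 14 cells against 126, and Col1a1 (6312 and 6941 CPM) and Col3a1 (6183 and 7441 CPM) were slightly higher there in the knockout-labelled library, within 1.5-fold, with Col4a1 at 5353 and 3857 CPM. Of 20 genes measured in that range 6 were called higher (Col4a5, Col5a3, Col6a2, Col15a1, Col18a1 and Col27a1) and 5 lower (Col5a1, Col5a2, Col12a1, Col16a1 and Col24a1). Their median log2 ratio was 0.05. The share over all genes was not computed for that range. Col8a1 was 119 and 4.78 CPM from 5 to 10 and 383 and 289 CPM from 20 to 50, and it was called lower only in the 3 ranges from 2 to 20, with too few counts to be called below 2. Col14a1 was called in none of the 5 ranges. The type VI genes, close over the whole gate, were lower in some of the less contractile ranges: Col6a1 in the 3 ranges below 10 (log2 ratio -0.81 to -0.69), Col6a2 in 2 of them and Col6a3 from 2 to 5. From 10 to 50 all 3 were within 1.5-fold. Col27a1 lay above 0 in all 5, from 0.35 to 1.21 on the log2 scale, and passed 1.5-fold in 2. Within a library most of these genes were higher in more contractile cells: from the range below 2 to that of 20 to 50, Col1a1 was 4.62-fold higher in the control-labelled library and 11.3-fold in the knockout-labelled library, against 1.04-fold and 1.33-fold for Col14a1.

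**Figure D3:**
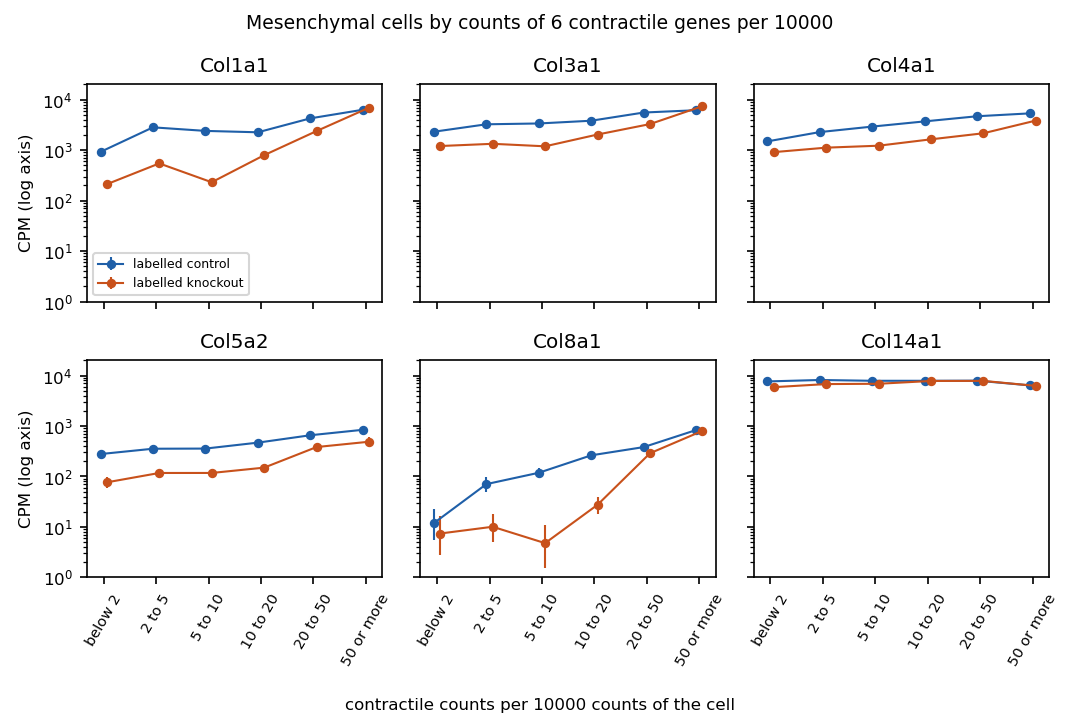
CPM (log axis) of 6 collagen genes in mesenchymal cells placed by their counts of 6 contractile genes per 10000, for the control-labelled library (blue) and the knockout-labelled library (orange), with exact 95% counting intervals as vertical lines. The orange line runs below the blue for Col1a1, Col3a1, Col4a1 and Col5a2 in the 5 ranges under 50, and the 2 lines nearly meet for Col14a1 from 10 upward.

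A small set of cells outside the gate carried more collagen I per count than the gate itself. These were cells in no gate with 4 to 6 of the 10 mesenchymal markers and a marker level at least 0.1 of that of gated cells. There were 70 such cells in the control-labelled library and 48 in the knockout-labelled library. The rule was chosen after the gates had been seen. Markers of another lineage, where too few for its gate, did not exclude a cell, so mixed cells can be among them. They held 8.71% and 7.55% of the collagen counts of kept cells. Col1a1 was 19138 CPM (95% interval 18789 to 19491) in the control-labelled library against 13805 CPM (13454 to 14163) in the knockout-labelled one, a difference of 1.39-fold. Col1a2 was 13413 and 10201 CPM, Col3a1 10289 and 9332 CPM, Col4a1 3485 and 3229.9 CPM and Col15a1 586 and 468 CPM. In both libraries their Col1a1 level was above that of the mesenchymal gate, and their Col14a1 level, 4378 and 4402 CPM, was below it. Of 22 genes measured in these cells 6 were lower in the knockout-labelled library (Col5a2, Col5a3, Col6a3, Col6a5, Col12a1 and Col18a1) and 2 higher (Col4a4 and Col8a2), beside 14% and 17.3% of all genes. The fibrillar genes Col1a1, Col1a2 and Col3a1 and the type IV genes Col4a1 and Col4a2 were all within 1.5-fold here. With these cells added to the gate, 10 measured genes were lower and 0 higher, beside 12.4% and 8.72% of all genes, and the log2 ratio of Col1a1 was -1.39 against -2.10 in the gate alone. Acta2 was 3246 and 1699.7 CPM, Lrat 833 and 466 CPM and Pdgfra 382 and 372 CPM in these cells, and Ptprc, a leukocyte marker, 144 and 111 CPM.

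Endothelial cells differed between the libraries in both directions. Of 14 genes measured, 10 were at least 1.5-fold lower in the knockout-labelled library, beside 13.2% of all 9209 genes measured, and 4 were higher, beside 5.44%. The 4 higher genes were Col13a1, Col4a3, Col4a4 and Col27a1. Col4a1 was 1333 CPM (95% interval 1315 to 1351) in the control-labelled library against 779 CPM (769 to 789.6) in the knockout-labelled one, 1.71-fold lower (log2 ratio -0.77, 95% interval -0.80 to -0.75). Col4a2 was 836 CPM (95% interval 822 to 851) in the control-labelled library against 428 CPM (420.3 to 435) in the knockout-labelled one, 1.96-fold lower. The minor chains Col4a3 and Col4a4, which lie next to each other on the chromosome, differed in the other direction: Col4a3 was 3.65 and 13.1 CPM (3.6-fold higher) and Col4a4 4.69 and 25.7 CPM (5.49-fold higher), with counts in 2.71% and 11.7% of cells for Col4a4. Those 2 chains, with Col4a5, form the type IV trimer of the kidney filter. Col13a1, a transmembrane collagen of cell adhesion sites, was 19.5 CPM (95% interval 17.3 to 21.8) in the control-labelled library against 129.9 CPM (126 to 134) in the knockout-labelled one, 6.67-fold higher. It was found in 11.5% and 50.7% of endothelial cells and in 0.208% and 1.05% of lymphocytes. Thinned to 2800 counts a cell the endothelial shares were 5.58% and 27.4%. Median counts were 6748 and 7168 in endothelial cells and 4690 and 4550 in lymphocytes. Col27a1 was 8.14 and 28.8 CPM, 3.53-fold higher.

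Col4a1, Col4a2, Col13a1, Col4a4 and Col27a1 kept their direction in each of 6 endothelial subsets, of which 5 were set by markers of large vessels, angiogenic cells, Cyp26b1 and Car8, the pericentral zone and the periportal zone, and the last held the cells of none. A cell could belong to more than 1 subset. The mix of subsets differed: cells with Cyp26b1 and Car8 markers were 14.7% and 73.1% of the endothelial gate, and angiogenic cells 41.7% and 16.7%. Col4a1 was different by -0.80 to -0.57 on the log2 scale, its levels running from 1011 to 1422 CPM over the subsets of the control-labelled library and from 625 to 927 CPM in the knockout-labelled library, ranges that did not overlap. Col13a1 ran from 7.3 to 32.6 CPM and from 36.6 to 143 CPM, with its lowest value in large-vessel cells of both libraries. In Cyp26b1 and Car8 cells it was 32.6 and 141 CPM, and in pericentral cells 8.95 and 118 CPM. Col4a4 ran from 1.73 to 7.87 CPM and from 11.9 to 26.9 CPM. Col27a1 ran from 6.41 to 14.7 CPM and from 19.3 to 35.2 CPM. Of the other genes called over the whole gate, Col3a1, Col5a1, Col5a2, Col6a3 and Col14a1 were also lower in each of the 6 subsets. Their ratios came as near to 0 as -0.02 for Col3a1, -0.08 for Col5a2 and -0.03 for Col6a3 on the log2 scale. No subset values are given for Col4a3. Col1a1, Col1a2 and Col8a1 did not keep their direction. In angiogenic cells Col1a1 (104 and 195 CPM) and Col1a2 (89.1 and 142 CPM) were higher in the knockout-labelled library, against lower in the other 5 subsets, and in large-vessel cells Col8a1 was 59.5 and 70.4 CPM, within 1.5-fold.

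**Figure D4:**
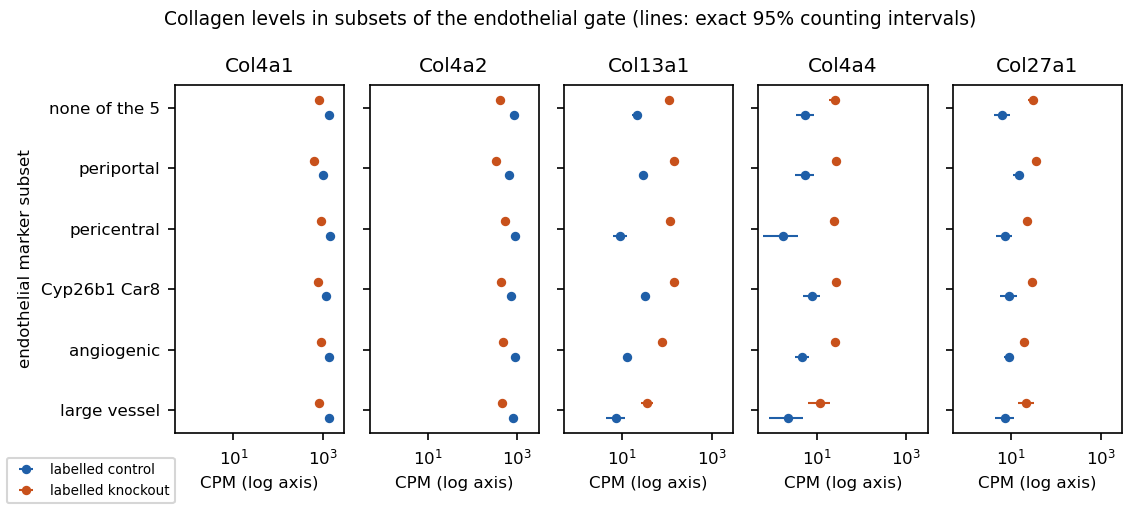
CPM (log axis) of 5 collagen genes in 6 subsets of the endothelial gate, for the control-labelled library (blue) and the knockout-labelled library (orange), with exact 95% counting intervals as horizontal lines. Col4a1 and Col4a2 are lower and Col13a1, Col4a4 and Col27a1 higher in the knockout-labelled library in each of the 6 subsets.

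The other lower genes of the endothelial gate stood on a different footing. Col1a1 was 85.6 and 48.1 CPM, but 8 of 1847 cells held 78.2% of its counts in the control-labelled library and 2 of 3493 held 91.2% in the knockout-labelled library. Those cells had median totals of 27884 and 32586 counts, against 6748 and 7168 for the gate. All of them had Dcn counts, but only 3 of the 8 and 1 of the 2 also had Pdgfra counts. Dcn itself was 58.2 and 35.3 CPM in lymphocytes, so a Dcn count in so deep a cell can be free RNA. Without these cells Col1a1 was 18.9 and 4.25 CPM, close to the lymphocyte level of 16.7 and 7.53 CPM. Col3a1 (83.2 and 34.6 CPM) and Col1a2 (66.6 and 37.1 CPM) stood at 3.11 to 4.85 times the lymphocyte level in the 2 libraries. Col5a1 (13.9 and 3.56 CPM) and Col8a1 (15.2 and 5.06 CPM) were also lower. The lymphocyte level of Col1a1 was itself lower in the knockout-labelled library. Col14a1 was 84 and 28 CPM in endothelial cells, 2.16 and 0.921 times the lymphocyte level. In the knockout-labelled library it was thus no higher than in lymphocytes. With the lymphocyte level subtracted, its level there was 0 and was replaced by 3 counts, and its log2 ratio was -8.78 against -1.58. Col5a1 was -3.34 against -1.97 in that setting. How much of these lower calls was free RNA was not tested. With the top 5% of doublet scores removed, the log2 ratios of Col1a1 and Col1a2 were -0.27 and -0.29, within 1.5-fold. Without the cells of 20 or more Col1a1 counts, Col1a1 was -2.15. Col5a2 lay within 1.5-fold in both settings, at -0.46 and -0.44. Col5a2 (27.4 and 17 CPM) and Col6a3 (20.3 and 5.57 CPM) were more widely spread, Col5a2 with counts in 9.15% and 7.56% of cells against 1.46% and 0.523% of lymphocytes.

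Mesothelial cells, the lining of the liver surface, were 42 and 12, and their values rest on that number. They carried fibrillar collagen at the scale of the mesenchymal gate: Col1a1 was 2531 CPM (95% interval 2421 to 2644) in the control-labelled library against 2867 CPM (2641 to 3108) in the knockout-labelled one, and Col1a2 5193 CPM (95% interval 5035 to 5354) in the control-labelled library against 2954 CPM (2725 to 3198) in the knockout-labelled one. Col3a1 was 1812 and 3679 CPM, 2.03-fold higher in the knockout-labelled library, opposite in direction to mesenchymal cells. The mesenchymal marker Dcn was also higher in this gate, 2653 and 7035 CPM, while Lrat (42.9 and 4.84 CPM) and Pdgfra (451 and 237 CPM) were lower. Mesenchymal markers were allowed in this gate up to 0.5 of their usual level, and their part in the Col3a1 difference was not tested. Col4a1 was 1731 and 179 CPM and Col4a2 881 and 48.4 CPM, the latter on 10 counts in the knockout-labelled library. Col5a2 was 693 and 527 CPM, within 1.5-fold. Col6a1 (595 and 943 CPM) and Col6a2 (422 and 933 CPM) were higher. The Col6a1 ratio was within 1.5-fold as a mean of per-cell CPM (log2 0.40) and after thinning (0.36). Col6a5, a type VI chain, was 84.6 and 198 CPM, with under 10 counts in every other gate of 10 or more cells. Col4a5 was 116 and 189 CPM, and in the knockout-labelled library 35 cholangiocytes had it at 121 CPM. The mesothelial Col4a5 ratio was 0.70 on the log2 scale, 0.46 with cells of a 2nd lineage kept, 0.079 as a mean of per-cell CPM and -1.44 after thinning. Over 19 measured genes 7 were higher and 8 lower, beside 16.9% and 28.6% of all 7299 genes measured, a background that is wide at this number of cells.

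Few collagens led in other types. Col18a1, the multiplexin whose C-terminal fragment is endostatin, was 107 CPM (95% interval 93.7 to 121) in the control-labelled library against 249 CPM (232 to 266) in the knockout-labelled one in hepatocytes, 2.33-fold higher, while 9.88% of all genes in that gate were higher by 1.5-fold or more and 54.8% were lower. It was found in 24.4% and 63.8% of 238 and 80 hepatocytes. Median totals were 5905.5 and 6253.5 counts, but the summed counts of the gate were 2296998 and 3423504. Very deep cells therefore weighed more in the knockout-labelled sum, and their part in the Col18a1 difference was not tested. Col27a1 was 3.48 and 17.5 CPM there. Col11a2, a chain of the minor fibrillar collagen XI, was 11.5 CPM (95% interval 9.88 to 13.3) in the control-labelled library against 20.9 CPM (19.2 to 22.8) in the knockout-labelled one in Kupffer cells, the liver's resident macrophages, 1.82-fold higher, with a count in 12.8% and 27.7% of cells. Col23a1, a transmembrane collagen, was 19.1 and 13.9 CPM in conventional dendritic cells, within 1.5-fold. In endothelial cells Col23a1 was 9.12 CPM and 1.64 CPM, under the 10 CPM needed for a call. The 35 cholangiocytes of the knockout-labelled library had Col4a1 at 151 CPM, Col18a1 at 88.7 CPM and Col27a1 at 73.6 CPM, and the control-labelled library had 3 such cells, too few to compare.

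Col1a1 counts of 3 leukocyte gates in the knockout-labelled library came mostly from a few cells. In monocytes of the knockout-labelled library 1 cell held 2167 of 2179 Col1a1 counts (99.4%), and that cell had 78786 counts in all against a median of 12194. In the control-labelled library 1 monocyte held 89.9%. Summed over monocytes Col1a1 was 133 and 575 CPM, Col1a2 87 and 330.0 CPM and Col3a1 54.7 and 318 CPM. In Kupffer cells of the knockout-labelled library 4 of 1450 cells held 94.1% of Col1a1 counts, and in conventional dendritic cells 1 of 116 held 98.2%. In the control-labelled library they were more spread: the highest Kupffer cell held 13% of 323 Col1a1 counts, which lay in 200 cells, and the 28 counts in dendritic cells lay in 15 cells. The highest monocyte of the knockout-labelled library also held 99% of Col1a2 and 98.4% of Col3a1 counts. The Kupffer sums were 20.5 and 85.6 CPM for Col1a1, 17 and 64.8 CPM for Col1a2 and 27.4 and 77.1 CPM for Col3a1. In dendritic cells they were 24.3 and 376 CPM, 13 and 411 CPM and 20.8 and 171 CPM. In neutrophils, 30 and 180 cells, Col1a1 was 172 and 11.8 CPM and Col1a2 127 and 6.66 CPM, and 1 cell held 77.4% of the Col1a1 counts of the control-labelled library. The cells that held most of the Col1a1 counts all had counts of Dcn and Pdgfra. The highest Kupffer cell of the control-labelled library had Dcn but no Pdgfra counts. The counts of higher genes in these gates (9 of 12 measured in monocytes beside 19.5% of all genes, 4 of 7 in Kupffer cells beside 4.66%, 8 of 12 in dendritic cells beside 12.2%) are given as sums over a gate and do not describe its typical cell. Lower genes were 3 in monocytes (Col4a1, Col4a2 and Col14a1) beside 13.5% of all genes, 2 in Kupffer cells (Col4a1 and Col4a2) beside 7.09% and 2 in dendritic cells (Col4a2 and Col14a1) beside 8.49%. The lymphocyte levels of these genes were also lower in the knockout-labelled library: Col4a1 33.0 and 18.0 CPM, Col4a2 27.1 and 9.49 CPM and Col14a1 38.9 and 30.4 CPM. How much of these lower calls in leukocytes was free RNA was not tested.

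The share of cells with a count was compared at 1 depth. With each cell thinned to 2800 counts, which left out 0 cells, Col1a1 was found in 83% and 42.4% of mesenchymal cells and 5.21% and 1.57% of lymphocytes. Col5a2 was found in 68.6% and 26.9% of mesenchymal cells and Col8a1 in 25% and 6.68%. Unthinned shares were 90.5% and 54.3% for Col5a2 and 35.5% and 10.6% for Col8a1, at median totals of 9905 and 8615 counts. Col14a1 was found in 100% and 99.8% of mesenchymal cells after thinning. In endothelial cells Col4a1 was found in 98% and 92.8% of cells and, thinned, in 91.5% and 78.5%, against 7.71% and 4.36% of lymphocytes. Col4a2 was found in 82.7% and 61.7% after thinning.

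Genes that act on collagen were counted in the same gates. Their levels were not set against those of lymphocytes, so the part of free RNA in them was not tested. Of 18 measured genes for folding and modifying procollagen in mesenchymal cells, 6 were at least 1.5-fold lower in the knockout-labelled library and 0 higher. Over all genes measured in that gate the shares were 13.4% lower and 9.2% higher, against which each list count of this gate is set. Plod2, a lysyl hydroxylase that sets the type of cross-link, was 258 and 78.2 CPM. P3h1, a prolyl 3-hydroxylase, was 45 and 21.7 CPM, and Fkbp10, a collagen chaperone, 93.4 and 47.1 CPM. Of 10 genes for trimming and cross-linking, 5 were lower and 0 higher. Lox, which cross-links collagen fibres, was 299 and 23 CPM, 13-fold lower, its relative Loxl2 759 and 283 CPM, and Loxl1 67.6 and 30.9 CPM. Of 5 measured collagen receptors 3 were lower and 0 higher, the receptor kinase Ddr1 (55.1 and 26.1 CPM), the inhibitory receptor Lair1 (20.3 and 10.7 CPM) and the endocytic receptor Mrc2 (31.5 and 20.4 CPM). Of 4 measured proteases that degrade collagen 3 were lower and 0 higher: Mmp13 (10.2 and 5.92 CPM), Mmp14 (198 and 118 CPM) and Ctsk (79 and 45.6 CPM). The median log2 ratios of the 4 lists were -0.35, -0.61, -0.63 and -0.77, against -0.01 over all genes measured.

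In endothelial cells 4 of 16 measured folding genes were lower and 1 was higher, beside 13.2% and 5.44% of all genes measured there. The 1 higher gene of 16 is near that background share. Fkbp10 was 24.4 and 2.5 CPM, Plod2 10.8 and 3.76 CPM and P3h3 15.7 and 8.31 CPM. The higher gene was the prolyl hydroxylase subunit P4ha2, 8.47 and 14.3 CPM. Of 4 measured trimming and cross-linking genes 2 were lower, Lox (12.2 and 2.56 CPM) and Loxl2 (116 and 65 CPM). Of 3 measured receptors 2 were lower, Lair1 (31.3 and 7.93 CPM) and Ddr2 (10.7 and 5.1 CPM). Ddr2 was far higher in mesenchymal cells, at 325 and 348 CPM, and whether its endothelial counts were free RNA was not tested. Of 2 measured proteases 0 passed 1.5-fold.

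In mesothelial cells, 42 and 12, the lists went both ways, where 16.9% of all genes were higher and 28.6% lower. Of 16 measured folding genes 3 were higher and 5 lower, and Plod2, lower in the other 2 gates, was 101 and 174 CPM. Of 7 trimming and cross-linking genes 2 were higher and 1 lower, of 5 receptors 1 was higher and 2 lower, and of 3 proteases 1 was higher and 2 lower.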

How the data were processed

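Single cells of 2 mouse livers were captured with the BD Rhapsody whole-transcriptome kit and read on a DNBSEQ-G400RS, per the labels' protocols. The authors deposited 1 table of whole-number counts per gene and barcode for each library, with GRCm39 as genome build (submitters' processing notes). Which aligner was used, whether molecular identifiers were collapsed and how cells were called is not given in the sources used here, so intervals cover counting error only. Each table held 10000 barcodes, with 106208933 counts in the control-labelled library and 129802501 in the knockout-labelled one. The lowest barcode had 3311 and 2848 counts.

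Kept barcodes had 300 genes or more, 500 counts or more and no more than 25% mitochondrial counts. A cell entered a gate with 7 of 10 endothelial, 7 of 10 mesenchymal or 5 of 8 mesothelial markers, and the other types needed 4 or 5. It left the gate where it also had 3 markers of another lineage at 0.2 of that lineage's usual level or more (0.5 for mesenchymal markers in mesothelial cells). The markers were fixed, but these numbers, and the contractile ranges and endothelial subsets, were chosen after the data had been seen. Doublets had no gate of their own: Scrublet's automatic threshold marked 1 cell per library and was not used. Counts were summed per gate and scaled to CPM. With 1 library per label no test was run: levels have exact Poisson intervals, ratios exact conditional binomial intervals and shares exact Clopper-Pearson intervals, all at 95%. A gene was measured in a gate with at least 20 counts in all and 10 CPM in 1 library and called at 1.5-fold. Where a library was at 0 the ratio used 3 counts. The scripts were tested on simulated counts.

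Values in full were given for the 14 measured collagen genes of highest CPM in the mesenchymal gate and the 8 highest in the endothelial and mesothelial gates. In other types up to 3 measured genes at 5 times the lymphocyte level or more were named, and of each pathway list up to 3 genes with the largest changes past 1.5-fold. Ccn2 was named to check the labels. Other genes given with values, such as Col12a1, Col15a1, Col24a1, Col4a3, Col4a4, Col4a5, Col5a3, Acta2, Lrat, Pdgfra and Ptprc, were picked after their values were seen. The members and lists were chosen with earlier results of these data known. Promoter windows came from RefSeq on GRCm38.p6, matched by symbol, and 34 of 43 genes had one. Alternatives covered the cell filter, gates, clusters made without collagen genes, doublet scores, scaling, free RNA, depth, count minimum and fold. Python 3.11.15, numpy 2.4.6, scipy 1.17.1, pandas 2.3.3, scanpy 1.11.5 and matplotlib 3.10.9 were used.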

Additional observations from a re-analysis of the deposited data

Results flagged for a closer look

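Several collagen genes that were lower in mesenchymal cells of the knockout-labelled library were higher there in another gate, with 1 library per label and no test of the difference between gates. All values here are log2 ratios of CPM, knockout-labelled over control-labelled library. In mesothelial cells, 42 and 12 of them, Col3a1 was 1.02 against -1.32 in mesenchymal cells and Col4a5 was 0.70 against -1.04. The mesothelial Col4a5 value was 0.079 as a mean of per-cell CPM and -1.44 after thinning to 2800 counts, and the mesenchymal one was within 1.5-fold in 3 settings. In hepatocytes Col15a1 was 0.73 against -1.004 in mesenchymal cells, a value that turned positive in 3 settings.

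In the knockout-labelled library 1 cell held at least 97.8% of the monocyte counts and at least 90.6% of the dendritic cell counts of each gene below, and 10 Kupffer cells held 95.3%, 93.1% and 89.1% of the Col1a1, Col1a2 and Col3a1 counts. In the control-labelled library counts were more spread, the highest cell holding 89.9% of Col1a1 in monocytes, 13% in Kupffer cells and 35.7% in dendritic cells. Col1a1 was 2.12 in monocytes, 2.06 in Kupffer cells and 3.95 in conventional dendritic cells, against -2.10 in mesenchymal cells. Col1a2 was 1.92, 1.93 and 4.98 in the same 3 gates, against -1.32. Col3a1 was 2.54, 1.49 and 3.04 in them. Col5a1 was 2.27 in monocytes and 1.59 in dendritic cells against -0.82, and Col5a2 was 2.19 and 2.48 against -1.87. Col15a1 was 2.51 in monocytes.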

How the results depend on the processing

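Among genes past 1.5-fold, direction was kept in every setting run by 14 of 14 in endothelial, 10 of 11 in mesenchymal and 12 of 15 in mesothelial cells. The mesenchymal settings included low and highly contractile cells, but the endothelial settings did not include the endothelial subsets. There Col1a1, Col1a2 and Col8a1 did not keep their direction, each being higher in 1 of 6 subsets. The exception in mesenchymal cells was Col15a1, at 0.11 with the stricter cell filter, 0.053 as a mean of per-cell CPM and 0.0040 after thinning to 2800 counts. In mesothelial cells Col4a5 turned to -1.44 and Col8a2 to 0.81 after thinning, and Col15a1 to 1.32 with the stricter gate. The 0 higher genes of mesenchymal cells became 1 with the stricter cell filter, with cells of a 2nd lineage kept, with Leiden clusters, as a mean of per-cell CPM and in highly contractile cells, 2 after thinning and 9 with no minimum count. Endothelial genes were 4 higher and 10 lower, 8 and 25 with no minimum, 1 and 6 at 50 counts and 50 CPM, and 5 were lower at 2-fold. Mesothelial genes, 7 higher and 8 lower, were 2 and 5 after thinning, with 14 higher at no minimum. At 50 counts and 50 CPM the endothelial folding list had 0 higher and 1 lower, trimming 1 lower and receptors 0 lower, and mesenchymal receptors 1 lower. With Leiden clusters endothelial trimming and receptors had 1 lower each, and mesenchymal cells led for 15 genes in the knockout-labelled library. Shares over all genes were not computed in these settings, highly contractile cells apart. The counts of higher and lower genes in them therefore have no background beside them. The mesenchymal share of collagen counts, 73.1% and 49.4%, was 64.7% and 58.0% with Leiden clusters, 41.3% and 25.5% over all kept cells, 76.7% and 55.9% with cells of 4 to 6 markers added, and 74.5% and 50.8% without endothelial cells of 20 or more Col1a1 counts. The endothelial share was 27.5% and 35.3%, 9.97% and 17.6%, 15.3% and 29.7%, and 16.1% and 32.2% in the same settings. The last 2 settings were chosen after seeing the data. Thinning took cells with a count from 92.7% and 59.9% to 83.0% and 42.4% (mesenchymal Col1a1), from 98.0% and 92.8% to 91.5% and 78.5% (endothelial Col4a1) and from 11.5% and 50.7% to 5.58% and 27.4% (endothelial Col13a1). Of 623 ratios of single genes over the settings, 453 lay within the counting interval of the reported value, and 55 moved by 1.5-fold or more. The causes of these shifts were not tested. Scaling by TMM or median of ratios moved all genes by -0.104 and -0.122 (log2) in mesothelial cells and by less than 0.1 in the other 2 gates. No Leiden cluster was named mesothelial, so that type has no value there. A cluster led by mesenchymal markers, with 407 and 97 cells, was left unnamed and out of the Leiden shares. No paired analysis was possible because each genotype label has 1 library.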
